A study of Mus musculus with 6 samples.

Results

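Hox genes in the aortas of hyperlipidaemic and control mice were measured with 48 probe sets, out of 45101 on the array, whose annotated symbol was that of a gene of the Hoxa, Hoxb, Hoxc or Hoxd cluster. They cover 33 of the 39 Hox genes of the mouse, among 18829 genes named on the array, and 11 genes have more than 1 probe set. A further 3 probe sets that name a Hox gene beside another gene were not used. Aortic RNA of 3 groups was hybridised: non-transgenic C57BL/6J mice (B6), ApoE-/- mice on the same C57BL/6J background without treatment, and ApoE-/- mice that had received vitamin E in the diet at 2000 IU/kg for 7 months. ApoE-/- mice lack apolipoprotein E and develop atherosclerotic plaques, and all 3 groups were kept on the same type of chow until an age of 32 to 34 weeks. Each group has 2 arrays, and each array carries the pooled RNA of 3 aortas, so the spread between single mice was not measured. The labels give the tissue as aorta, without the stretch that was taken, and describe it as cleaned of fat. Against that description, the adipocyte genes Fabp4, a fatty acid carrier, and Adipoq, the hormone adiponectin, were bright on every array, with signals from 13558 to 16234 and from 7022 to 11405.

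Hox genes encode homeodomain transcription factors that lie in 4 clusters, A to D, and are numbered by their place in the cluster. Genes with low numbers are switched on early and far forward in the embryo, and genes with high numbers later and further back, so that each level of the trunk carries its own combination. Adult smooth muscle cells and fibroblasts keep part of this positional combination, and the numbers are therefore used as a guide to where along the body axis a tissue was taken. PBX, MEIS and PREP proteins bind DNA together with Hox proteins, retinoic acid switches the low-numbered genes on in the embryo, and Polycomb and trithorax proteins keep the clusters silent or active afterwards.

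The arrays themselves were alike in mean signal, from 305 to 319, and in the share of probe sets at 100 or more, from 35.8 to 37.3 percent. Apoe, the disrupted gene, gave 5209 and 5432 in B6 and between 40.5 and 93.2 in the ApoE-/- groups, as labelled. The B6 arrays differed from the others in 2 technical measures. The poly-A control RNAs, which are normally added before labelling, were 2.62 to 4.11 times as bright on B6 as on untreated ApoE-/- arrays and 2.21 to 3.32 times as bright as on vitamin E arrays, and the Gapdh 3' to 5' ratio was 1.35 and 1.34 in B6, 1.03 and 1.06 in untreated and 1.15 and 1.24 in vitamin E-fed ApoE-/- aortas. Labelling and genotype cannot be told apart in the comparisons with B6, and since the labels of the B6 and untreated arrays name a captopril group that those of the vitamin E arrays do not, the same holds for an array set and vitamin E.

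The Hox genes bright enough to be tested ran from paralog group 2 to paralog group 9. A probe set was tested where the mean signal of at least 1 group reached 100, a limit on the linear intensity scale of the arrays, and 14 of the 48 Hox probe sets, of 11 genes, passed. Of the 16 probe sets of paralogs 1 to 4, 4 were tested, of the 15 of paralogs 5 to 8, 8, and of the 17 of paralogs 9 to 13, 2. All 12 probe sets of paralogs 10 to 13 stayed below the limit, and 8 of them were under a signal of 20 on every array. Within paralogs 11 to 13, which mark the hindmost trunk, limbs and genital region, the highest signal on any array was 30.8. Both probe sets of paralog 1, Hoxb1 and Hoxd1, were at or below 10.6. A dim probe set does not show that its RNA was missing, because brightness differs between probe sets for technical reasons.

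**Figure D1:**
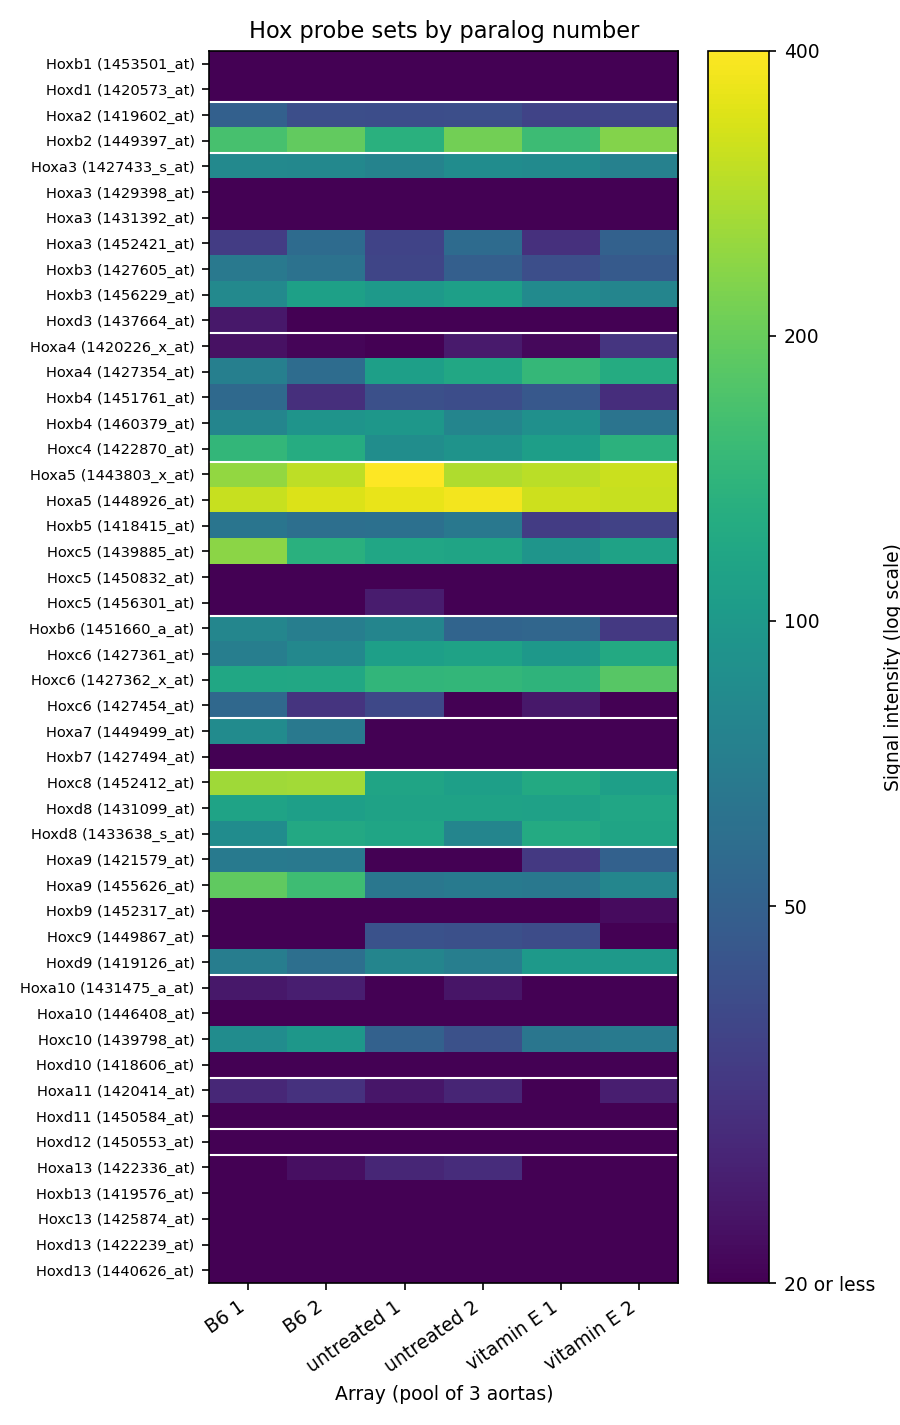
Signal intensity of all 48 Hox probe sets (rows, ordered by paralog number, with white lines between paralog groups) on the 6 arrays (columns), on a log colour scale that starts at 20. The bright rows lie between paralogs 2 and 9, and the rows of paralogs 11 to 13 stay at or near the floor, with a highest signal of 30.8.

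In untreated ApoE-/- against B6 aortas, Hoxc8 and Hoxa9 were lower and Hoxa4 was higher, with differences that were larger than the spread between arrays. In the RNA of a whole tissue, fewer cells of a type and less RNA per cell cannot be told apart. Of the 14 probe sets tested, 2 were higher (Hoxa4 and a Hoxc6 probe set), 3 were lower (Hoxc8, Hoxa9 and Hoxc4) and 9 were not called, at an adjusted p below 0.05 from limma over all 17909 probe sets tested. Over all those probe sets 21.7 percent were called higher and 19.1 percent lower, so the Hox counts lie near the shares of the array as a whole, and nothing particular to the Hox genes is read from them. The median log2 fold change of the 14 was 0.08, beside 0.03 over all. Without the limit on signal all 48 Hox probe sets entered. Then 4 were lower (Hoxc8, both Hoxa9 probe sets and Hoxa7) and 0 higher, against 4.96 percent higher and 5.01 percent lower over all 45037 probe sets. An unadjusted p below 0.05 from limma was reached by 11 of the 48, and by 10971 of the 45037 over all.

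In vitamin E-fed ApoE-/- against B6 aortas, Hoxc8 and Hoxa9 were lower and Hoxa4 was higher as well. Here 3 of 14 were higher (Hoxa4, Hoxd9 and the same Hoxc6 probe set), 3 were lower (Hoxc8, Hoxa9 and Hoxc5) and 8 were not called, beside 21.9 percent higher and 19.2 percent lower over all probe sets tested. Without the limit 1 of 48 was higher (Hoxa4) and 4 were lower (Hoxa7, Hoxc8, Hoxb5 and the brighter of the Hoxa9 probe sets), against 5.29 and 4.62 percent. Both comparisons use the same B6 arrays, so they are not independent of each other.

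No Hox gene was called between vitamin E-fed and untreated ApoE-/- aortas. With limma 0 of the 14 probe sets were higher and 0 lower, beside 8.52 percent higher and 6.99 percent lower over all. An unadjusted p below 0.05 from limma was reached by 3 of the 14 (Hoxc4, Hoxa5 and Hoxd9), and by 5660 of all 17909 tested. The methods' t-test with Benjamini-Hochberg adjustment also called 0. Without the limit the calls were 0 of 48, against 1.19 percent higher and 0.921 percent lower over all. There 6 of the 48 had an unadjusted p below 0.05 from limma, beside 7351 of all 45037. The log2 differences of the 14 ran from -0.38 to 0.43.

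Hoxc8, a gene of the thoracic level of the trunk, gave signals of 262 and 264 in B6, 115 and 109 in untreated ApoE-/- and 124 and 108 in vitamin E-fed ApoE-/- aortas. Both B6 arrays lay above all 4 ApoE-/- arrays, which overlapped among themselves. Against B6 the untreated group had a log2 fold change of -1.23 ± 0.13 (SE, 2 arrays per group), a 2.34-fold lower signal with an adjusted p of 0.000384 from limma. It was -1.18 ± 0.13 in vitamin E-fed against B6, with an adjusted p of 0.000501 from limma. Between the ApoE-/- groups it was 0.05, with a 95 percent interval from -0.26 to 0.35.

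Hoxa9, which in the embryo is expressed from the lower thoracic level backwards and in the adult also in blood progenitors, was read by 2 probe sets. The brighter gave 194 and 158 in B6, 65.7 and 67.8 in untreated and 66.0 and 78.8 in vitamin E-fed ApoE-/- aortas, with no overlap between B6 and either ApoE-/- group. This probe set passed the limit on signal only through the B6 group, where it is high. Without the limit it was also called lower against B6 (adjusted p = 0.0251 in untreated and 0.0299 in vitamin E-fed ApoE-/-, from limma). With the limit, its log2 fold changes against B6 were -1.39 ± 0.18 in untreated ApoE-/- (adjusted p = 0.00087 from limma) and -1.28 ± 0.18 in vitamin E-fed ApoE-/- aortas (adjusted p = 0.00134). The dimmer probe set, below the limit on signal, gave 68.5 and 67.3 in B6, 11.4 and 20.1 in untreated and 33.0 and 50.6 in vitamin E-fed ApoE-/- aortas. The calls of Hoxc8 and of the brighter Hoxa9 probe set against B6 held in all 16 alternative limma settings, whereas the methods' t-test with Benjamini-Hochberg adjustment, which uses the spread of each gene alone, called only Hoxc8 in the untreated group. Of the myeloid progenitor markers, which would accompany blood progenitors, only Prtn3 (proteinase 3) was tested, 1 of 5 genes. It gave 140.0 and 127 in B6, 42.6 and 21.0 in untreated and 39.4 and 65.1 in vitamin E-fed ApoE-/- aortas, and the summed signal of the list was 183 and 205, 93.0 and 106, and 113 and 192. The lower sum came from Prtn3, while Mpo (myeloperoxidase), chosen after its values were seen, was dim and went the other way, with 11.2 and 20.8 in B6, 29.0 and 46.2 in untreated and 24.3 and 35.3 in vitamin E-fed ApoE-/- aortas. The part of such cells in the Hoxa9 difference was not tested.

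Hoxa7, the neighbour of Hoxa9 in the cluster and a gene of the thoracic trunk, was above the floor on the B6 arrays alone. Its signal was 85.0 and 67.0 in B6, 6.55 and 6.31 in untreated and 6.66 and 13.3 in vitamin E-fed ApoE-/- aortas. All 4 ApoE-/- arrays lay under the floor of 20 to which low signals were set, so the signal was at least 3.77-fold lower in both ApoE-/- groups (adjusted p = 0.0102 and 0.0105 from limma without the limit on signal). Hoxc10, a lumbar-level gene and the brightest member just outside the limit, gave 85.8 and 97.8 in B6, 50.7 and 42.2 in untreated and 64.8 and 68.3 in vitamin E-fed ApoE-/- aortas. No ApoE-/- array reached the lower B6 array, and the log2 fold change of untreated ApoE-/- against B6 was -0.99 with an adjusted p of 0.054 from limma without the limit, so it was not called. The dim probe set of Hoxc9, between Hoxc8 and Hoxc10 in its cluster, had the opposite order, with 15.8 and 12.1 in B6, 42.7 and 41.5 in untreated and 40.0 and 14.8 in vitamin E-fed ApoE-/- aortas, and an adjusted p of 0.204 for untreated ApoE-/- against B6.

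**Figure D2:**
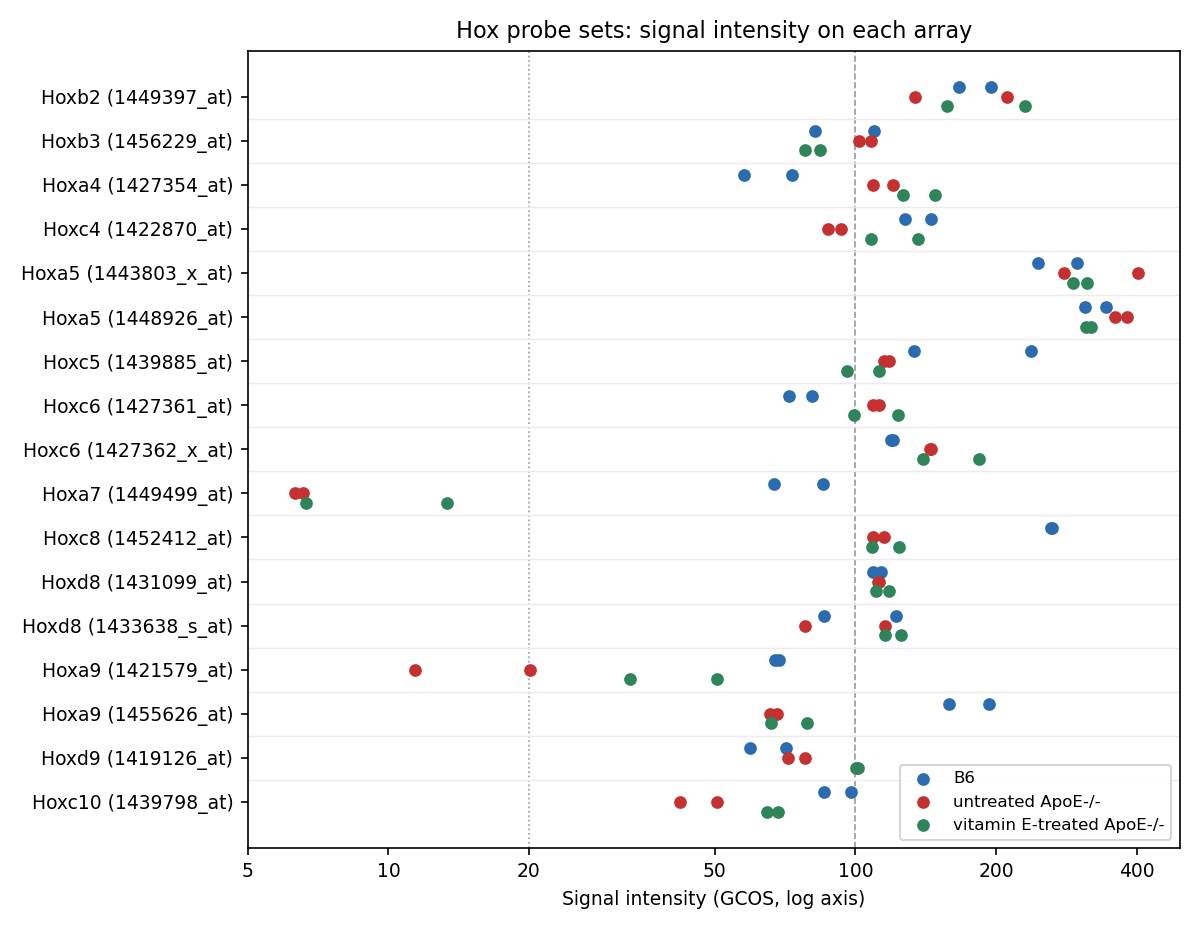
Signal intensity (log axis) of the 14 Hox probe sets tested and of Hoxa7, the dimmer Hoxa9 probe set and Hoxc10 on each array, ordered by paralog number. Each point is an array of 3 pooled aortas, the dashed line is the limit of 100 and the dotted line the floor of 20. Both B6 points of Hoxc8, Hoxa7 and Hoxa9 lie to the right of all ApoE-/- points, and both B6 points of Hoxa4 to the left of them.

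The stretch before the start of 3 genes of cluster A is shown because Hoxa7 and Hoxa9 differed from B6 and Hoxa5 was not called. Hoxa4, which was also called, had no entry among the upstream sequences. The sequences are the 250 bases upstream of the start in RefSeq, assembly GRCm38.p6, on the minus strand and written 5′ to 3′: Hoxa5 at chr6:52204588-52204837, Hoxa7 at chr6:52218574-52218823 and Hoxa9 at chr6:52227371-52227620. Capitals mark matches on either strand to the searched motifs. The CDX motif was TTTATG. The motif of PBX with a Hox protein was TGATNNAT. The MEIS motif was TGACAG, and the TATA motif was TATAAA, and the motifs were allowed to overlap.
Hoxa5: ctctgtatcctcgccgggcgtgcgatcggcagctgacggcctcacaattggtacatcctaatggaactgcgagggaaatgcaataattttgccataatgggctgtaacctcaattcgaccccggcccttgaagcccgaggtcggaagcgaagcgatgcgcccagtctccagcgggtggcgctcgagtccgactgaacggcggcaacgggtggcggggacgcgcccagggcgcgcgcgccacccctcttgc
Hoxa7: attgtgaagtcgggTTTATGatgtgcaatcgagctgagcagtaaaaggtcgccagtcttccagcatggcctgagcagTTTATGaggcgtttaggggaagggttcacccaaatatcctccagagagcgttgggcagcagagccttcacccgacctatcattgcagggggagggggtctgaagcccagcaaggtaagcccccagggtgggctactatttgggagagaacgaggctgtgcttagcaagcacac
Hoxa9: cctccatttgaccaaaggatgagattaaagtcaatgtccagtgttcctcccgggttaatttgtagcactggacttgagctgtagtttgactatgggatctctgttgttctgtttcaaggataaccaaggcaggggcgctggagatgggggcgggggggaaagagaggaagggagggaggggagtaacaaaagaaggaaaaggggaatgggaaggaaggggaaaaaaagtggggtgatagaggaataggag
Upstream of Hoxa7 the letters TTTATG, which CDX proteins bind, stood 2 times. Upstream of Hoxa5 and Hoxa9 none of the 4 motifs was found. TTTATG was found in 10.8 percent of all 32851 upstream sequences of this length and in 5 of the 24 of Hox genes, and the PBX-HOX letters in 7.68 percent of all and in 4 of 24. The MEIS letters were in 15.9 percent and in 2 of 24, and the TATA letters in 12.4 percent and in 4 of 24. GC content was 63.6 percent for Hoxa5, 54.8 for Hoxa7 and 49.6 for Hoxa9, and the number of CpG pairs was 28, 7 and 3. No trend along the cluster is read from these 3 genes, since Hoxa6 had 65.2 percent and 24 pairs and Hoxa13 80.0 percent and 35. Over all sequences the medians were 52.4 percent and 6 CpG pairs, and over the 24 of Hox genes 58.6 percent and 12.5. A match is a description of the letters and not a binding site.

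Hoxa4, a gene of the neck and upper thoracic level, had the highest fold above B6 among the members tested. It passed the limit on signal only through the ApoE-/- groups, where it is high. Its signal was 73.3 and 57.8 in B6, 109 and 121 in untreated and 148 and 127 in vitamin E-fed ApoE-/- aortas. All 4 ApoE-/- arrays lay above both B6 arrays, and the vitamin E arrays lay above the untreated ones. Against B6 the log2 fold change of the untreated group was 0.82 ± 0.18 (1.76-fold, adjusted p = 0.00985 from limma) and 1.07 ± 0.18 in vitamin E-fed ApoE-/- against B6 (2.10-fold, adjusted p = 0.00316). Between the ApoE-/- groups the difference of 0.26 had a 95 percent interval from -0.17 to 0.68 and was not called. The call in untreated ApoE-/- ended without B6 replicate 2 (0.65, adjusted p = 0.0597), without untreated replicate 2 (0.74, adjusted p = 0.0665) and with no limit on signal (adjusted p = 0.0801, all from limma). The methods' t-test called Hoxa4 in neither ApoE-/- group against B6, with values of 0.121 and 0.131 after Benjamini-Hochberg adjustment. A second Hoxa4 probe set, of a kind whose probes can bind other transcripts, stayed between 20.0 and 31.7 on all arrays.

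Genes of cluster C moved in both directions. Hoxc4 was lower in untreated ApoE-/- aortas, with 145 and 128 in B6, 87.3 and 93.1 in untreated and 108 and 136 in vitamin E-fed ApoE-/- aortas. It passed the limit on signal only through the B6 and vitamin E groups. Without the limit it was not called in untreated ApoE-/- against B6 (adjusted p = 0.119 from limma). Against B6 the log2 fold change of the untreated group was -0.60 ± 0.17 (adjusted p = 0.026 from limma) and that of the vitamin E group -0.17 ± 0.17 (adjusted p = 0.453), where the arrays overlapped. The first of these calls ended when any 1 of the 4 arrays compared was left out, with adjusted p values between 0.0629 and 0.137.

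Hoxc5 gave 238 and 134 in B6, 118 and 115 in untreated and 95.8 and 112 in vitamin E-fed ApoE-/- aortas. The B6 arrays differed more from each other than the lower of them did from the ApoE-/- arrays. The log2 fold change of -0.78 ± 0.26 in vitamin E-fed ApoE-/- against B6 (adjusted p = 0.0436 from limma) dropped to -0.37 without B6 replicate 1 (adjusted p = 0.2), and the call also ended without each of the other arrays except B6 replicate 2. In untreated ApoE-/- it was -0.62 (adjusted p = 0.0926) and -1.03 without B6 replicate 2 (adjusted p = 0.013). The other Hoxc5 probe sets were dim, with 25.1 as their highest signal.

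Hoxc6, between Hoxc5 and Hoxc8 in the cluster, went the other way. A first probe set gave 72.2 and 80.7 in B6, 109 and 113 in untreated and 99.2 and 123 in vitamin E-fed ApoE-/- aortas, with both B6 arrays below all others. It passed the limit on signal only through the ApoE-/- groups, where it is high. Without the limit it was not called in either of them against B6 (adjusted p = 0.133 from limma in each). Its log2 fold change against B6 was 0.54 ± 0.17 in either ApoE-/- group (adjusted p = 0.0397 in untreated and 0.0394 in vitamin E-fed, from limma). These calls held in 7 of 14 and in 5 of 14 alternative limma settings, and each ended when either B6 array was left out (adjusted p between 0.0805 and 0.162), as they did for either array of the untreated group (0.0671 to 0.154). The call in vitamin E-fed ApoE-/- also ended without vitamin E replicate 2 (0.156). A second, cross-hybridising probe set gave 119 and 120.3, 144 and 145, and 140 and 184, also with both B6 arrays lowest, and was not called (adjusted p = 0.208 and 0.0689). A further, dim probe set had the opposite order, with 55.2 and 31.3, 38.3 and 14.8, and 24.2 and 7.58, so the Hoxc6 probe sets disagree.

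Hoxd9 differed from B6 in the vitamin E group. Its signal was 71.0 and 59.5 in B6, 77.8 and 71.9 in untreated and 100.4 and 101 in vitamin E-fed ApoE-/- aortas, so that the vitamin E arrays lay above all others. The log2 fold change of vitamin E-fed ApoE-/- against B6 was 0.63 ± 0.17 (adjusted p = 0.0228 from limma) and that against untreated ApoE-/- was 0.43 ± 0.17 (adjusted p = 0.137), and the difference of the untreated group from B6 was 0.20 (adjusted p = 0.38). With a vitamin E mean of 100.8 it is the member just inside the limit, which it passed only through the group where it is high. Its call against B6 ended with no limit on signal (adjusted p = 0.0872), without B6 replicate 2 (0.1) and without either vitamin E array (0.0578 and 0.0636). Hoxb5, a gene of the lower neck level below the limit on signal, gave 64.4 and 60.1 in B6, 60.8 and 66.0 in untreated and 34.1 and 36.2 in vitamin E-fed ApoE-/- aortas. The vitamin E arrays lay below all others, and without the limit the log2 fold change was -0.82 against B6 (adjusted p = 0.0497 from limma) and -0.85 against untreated ApoE-/- (adjusted p = 0.0941).

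The remaining members tested were not called in any comparison. Hoxa5, which patterns the neck, the upper thorax and the lung in the embryo, gave 310.4 and 343 in B6, 360.2 and 381 in untreated and 319 and 312 in vitamin E-fed ApoE-/- aortas with its main probe set. The untreated arrays lay above all others by a small margin, with a log2 fold change of 0.18 ± 0.09 against B6 (adjusted p = 0.15 from limma). A second, cross-hybridising Hoxa5 probe set gave 246 and 298, 402 and 279, and 293 and 314, and passed only when untreated replicate 2 was left out (0.57, adjusted p = 0.0385). Hoxd8 gave between 109 and 118 on all arrays with its main probe set, a log2 difference of 0.01 between untreated ApoE-/- and B6 with a 95 percent interval from -0.31 to 0.33. Hoxb2, a hindbrain-level gene, gave between 134 and 230.3 and overlapped in all groups. Hoxb3 gave 81.9 and 110 in B6, 102 and 108 in untreated and 83.8 and 77.9 in vitamin E-fed ApoE-/- aortas, and with an untreated mean of 104.9 it lies just inside the limit, while Hoxb4 with 87.7 and Hoxc10 with a B6 mean of 91.8 lie just outside.

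By paralog number the differences are given as a description. In untreated ApoE-/- against B6 the median log2 fold change was 0.02 over the 4 probe sets tested of paralogs 1 to 4, 0.10 over the 8 of paralogs 5 to 8 and -0.59 over the 2 of paralogs 9 to 13. The correlation with paralog number over the 14 was -0.37 (Pearson) and -0.23 (Spearman), given as a description because the points share arrays and genes. In vitamin E-fed ApoE-/- against B6 the medians were -0.05, 0.10 and -0.32 and the correlations -0.23 and -0.02. Between the ApoE-/- groups the medians were 0.21, 0.01 and 0.27, and the correlations 0.31 and 0.24. The last median of each comparison rests on Hoxa9 and Hoxd9 alone, which passed the limit only through the group where each is high (B6 for Hoxa9, vitamin E for Hoxd9), so nothing is read from it. Over all 17 probe sets of paralogs 9 to 13 with no limit on signal the median was 0 in each comparison.

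**Figure D3:**
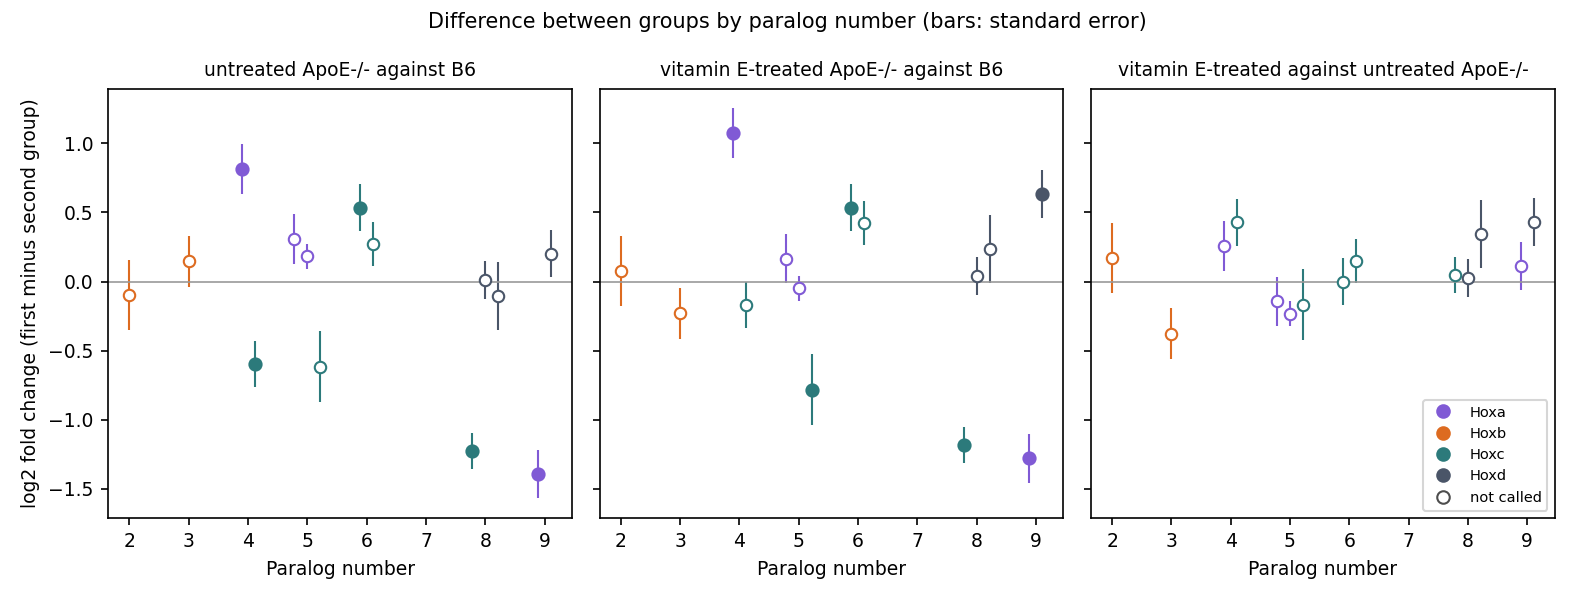
Log2 fold change (first minus second group) of the 14 Hox probe sets tested against paralog number, for the 3 comparisons. Points are coloured by cluster, bars are standard errors, and filled points had an adjusted p below 0.05 from limma. Hoxc8 and Hoxa9 lie near -1.2 to -1.4 against B6 while Hoxd8 and Hoxd9 lie at or above -0.11, and no point is filled between the ApoE-/- groups.

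By cluster the numbers are too small to be read against the shares of 21.7 percent higher and 19.1 percent lower over all probe sets tested. In untreated ApoE-/- against B6, cluster A, on chromosome 6, had 1 higher and 1 lower of 4 probe sets tested, and cluster C, on chromosome 15, had 1 higher and 2 lower of 5. Cluster B, on chromosome 11, had 0 of 2 and cluster D, on chromosome 2, had 0 of 3. In vitamin E-fed ApoE-/- against B6 the counts were 1 higher and 1 lower in cluster A, 1 higher and 2 lower in cluster C, 0 in cluster B and 1 higher (Hoxd9) in cluster D. Within cluster A, Hoxa4 was higher, Hoxa5 was not called and Hoxa9 was lower, in both ApoE-/- groups against B6. Hoxa7 was tested only in the fit without the limit on signal, where it was lower in both groups. In that fit Hoxa4 was not called in untreated ApoE-/- against B6 (adjusted p = 0.0801 from limma). Of the genes that flank the clusters, 3 were higher and 1 lower of 11 tested in untreated ApoE-/- against B6, near those shares of all probe sets, with 1 and 2 between the ApoE-/- groups, and 3 and 3 in vitamin E-fed ApoE-/- against B6, with median log2 fold changes of 0.10, -0.09 and -0.05. Calcoco1, next to cluster C and known as a transcriptional coactivator, gave 165 and 194 in B6, 308 and 323 in untreated and 309 and 332 in vitamin E-fed ApoE-/- aortas, a direction opposite to that of Hoxc8.

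The cofactors of Hox proteins tested are too few to be read against the shares over all probe sets tested. Those were 21.7 percent higher and 19.1 percent lower in untreated ApoE-/- against B6. Of 6 genes tested, 1 was higher and 0 lower in untreated ApoE-/- against B6, with a median log2 fold change of 0.10 beside 0.03 over all probe sets tested, and 0 were called by limma in the other comparisons. The gene called was Meis1, with 101 and 110 in B6, 138 and 142 in untreated and 125 and 130 in vitamin E-fed ApoE-/- aortas (adjusted p = 0.0445 from limma). Pbx2 stayed between 372 and 412. The homeobox genes of the ParaHox and related families, among them the CDX genes that switch on central Hox genes in the embryo, were mostly dim, with 6 of 11 under 20 on every array and 2 tested. Of these Meox1, a somite gene, was higher in vitamin E-fed ApoE-/- against B6, with 127 and 107 in B6 and 163 and 166 (adjusted p = 0.0238).

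Genes that keep Hox clusters silent or active were read against the shares called over all probe sets tested, which were 21.7 percent higher and 19.1 percent lower in untreated ApoE-/- against B6, 8.52 and 6.99 percent between the ApoE-/- groups, and 21.9 and 19.2 percent in vitamin E-fed ApoE-/- against B6. Of 19 Polycomb genes tested, 2 were higher and 2 lower in untreated ApoE-/- against B6, 4 higher and 1 lower in vitamin E-fed against untreated ApoE-/-, and 10 higher and 2 lower in vitamin E-fed ApoE-/- against B6. Their median log2 fold changes were 0.06, 0.21 and 0.25 in that order, beside 0.03, 0.00 and 0.02 over all probe sets tested. Ezh2, the enzyme that places the silencing methyl mark on histone H3, gave 185 and 196 in B6, 427 and 441 in untreated and 659 and 559 in vitamin E-fed ApoE-/- aortas (2.28-fold in untreated ApoE-/- against B6, adjusted p = 0.000146 from limma). Its order was the same as that of the markers of immature thymocytes, cells that divide and carry much Ezh2, whose summed signal was 554 and 556 in B6, 4182 and 5274 in untreated and 7678 and 8007 in vitamin E-fed ApoE-/- aortas. The part of these cells in the Ezh2 difference was not tested. Of 13 trithorax genes tested, 4 were higher and 3 lower in untreated ApoE-/- against B6, 4 and 0 between the ApoE-/- groups and 6 and 0 in vitamin E-fed ApoE-/- against B6, with medians of 0.11, 0.17 and 0.36. Kmt2a, the methyltransferase that maintains Hoxa9 expression in blood progenitors, gave 246 and 255 in B6, 380.3 and 359 in untreated and 403 and 396 in vitamin E-fed ApoE-/- aortas, higher where Hoxa9 was lower. Dot1l, a further methyltransferase of active Hox genes, gave 141 and 137, 255 and 175, and 245 and 251. Among the 3 lower genes was Kmt2c, a methyltransferase of enhancers, with 846 and 872 in B6, 638 and 588 in untreated and 813 and 741 in vitamin E-fed ApoE-/- aortas (adjusted p = 0.00247 for untreated ApoE-/- against B6 from limma).

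Read against the same shares, retinoic acid genes were called lower in 3 of 10 tested and higher in 0 in untreated ApoE-/- against B6, 1 higher and 0 lower between the ApoE-/- groups, and 1 higher and 3 lower in vitamin E-fed ApoE-/- against B6, with medians of -0.18, -0.15 and -0.23. Crabp2, which carries retinoic acid to the nucleus, gave 228 and 229 in B6, 78.2 and 107 in untreated and 346 and 314 in vitamin E-fed ApoE-/- aortas. It fell in untreated ApoE-/- against B6 (log2 fold change -1.32, adjusted p = 0.000732 from limma) and was higher in vitamin E-fed than in untreated ApoE-/- (1.85, adjusted p = 6e-04), while no Hox gene was called in that comparison. The summed signal of oesophageal epithelium markers had the same order, with 26166 and 26620.3 in B6, 14993 and 15028 in untreated and 28001 and 31428 in vitamin E-fed ApoE-/- aortas. Of 8 genes tested, 1 was higher and 5 lower in untreated ApoE-/- against B6. Between the ApoE-/- groups 8 were higher and 0 lower, and in vitamin E-fed ApoE-/- against B6 5 and 0. Endou, the exception, gave 202 and 214 in B6, 675 and 634 in untreated and 1255 and 1311 in vitamin E-fed ApoE-/- aortas. The part of these markers in the Crabp2 difference was not tested.

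Other transcription factors of position were read against the same shares of all probe sets. Of 8 heart and outflow factors tested, 4 were higher and 4 lower in untreated ApoE-/- against B6, 2 and 4 between the ApoE-/- groups and 1 and 2 in vitamin E-fed ApoE-/- against B6, with medians of 0.08, -0.44 and -0.08. Hand2, a factor of the outflow tract, the limb and sympathetic neurons, had an order like that of Hoxc8, with 593 and 610.0 in B6, 284 and 285 in untreated and 284 and 270.4 in vitamin E-fed ApoE-/- aortas (adjusted p = 8.03e-05 for untreated ApoE-/- against B6 from limma). Gata4 and Nkx2-5, factors of heart muscle, were higher in untreated ApoE-/- aortas, with 37.4 and 39.3 in B6, 143 and 144 in untreated and 59.2 and 86.0 in vitamin E-fed ApoE-/- aortas for Gata4. Of 11 regional factors of mesenchyme tested, 1 was higher and 4 lower in untreated ApoE-/- against B6, 2 and 2 between the ApoE-/- groups and 1 and 4 in vitamin E-fed ApoE-/- against B6, with medians of -0.29, -0.17 and -0.44. Prrx1, a factor of limb and vessel wall mesenchyme, gave 585 and 573 in B6, 434 and 404 in untreated and 408 and 364 in vitamin E-fed ApoE-/- aortas. Tcf21, a factor of epicardial and adventitial cells, gave 95.7 and 91.3, 200.2 and 212, and 123 and 122.

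The tissue label was checked against marker genes, since every Hox signal is that of a mixed tissue. Counts called stand beside the shares over all probe sets tested. These were 21.7 percent higher and 19.1 percent lower in untreated ApoE-/- against B6, and 21.9 and 19.2 percent in vitamin E-fed ApoE-/- against B6. Between the ApoE-/- groups they were 8.52 and 6.99 percent. All 12 smooth muscle genes passed the limit, with summed signals of 27283 and 27871 in B6, 25772 and 26340 in untreated and 23239 and 24446 in vitamin E-fed ApoE-/- aortas. Of these 12 genes, 1 was higher and 1 lower in the untreated group against B6, 1 was higher and 6 lower in the vitamin E group against B6, and 0 were higher and 4 lower between the ApoE-/- groups. Fibroblast markers summed to 19905 and 19591 in B6, 22233 and 20943 in untreated and 18081 and 19092 in vitamin E-fed ApoE-/- aortas, with 4 higher and 1 lower of 9 in untreated and 2 higher and 4 lower in vitamin E-fed ApoE-/- against B6. Within that list Col1a1, a collagen chain, was 3.04-fold higher in untreated ApoE-/- against B6. Both cell types carry positional Hox expression, and whether their amount bears on the Hox differences was not tested. Adipocyte markers summed to 33372 and 33678 in B6, 25490 and 26220.0 in untreated and 24289 and 27286 in vitamin E-fed ApoE-/- aortas, with 3 of 5 lower and 1 higher in either ApoE-/- group against B6, the direction of Hoxc8 and Hoxa9 for those 3. Brown adipocyte markers had 2 higher and 2 lower of 7 in untreated and 0 higher and 2 lower in vitamin E-fed ApoE-/- against B6, the lower genes being Ppargc1a, a coactivator of mitochondrial genes, and Dio2, which activates thyroid hormone. Macrophage markers were higher in 6 of 8 genes tested in untreated and in 5 of 8 in vitamin E-fed ApoE-/- against B6, and B cell markers in 5 of 5 in both.

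Sympathetic neurons and chromaffin cells lie beside the aorta and carry Hox genes of their own level. Most of their markers moved with Hoxc8 and Hoxa9 against B6. The summed signal of the list was 11896 and 11528 in B6, 4437 and 4420.5 in untreated and 5802 and 6267 in vitamin E-fed ApoE-/- aortas. Read against the same shares, 8 of 9 were lower and 0 higher in untreated ApoE-/- against B6. In vitamin E-fed ApoE-/- against B6, 7 were lower and 0 higher. Pnmt went the other way and was not called, with 10.2 and 81.0 in B6, 86.8 and 191 in untreated and 86.9 and 133 in vitamin E-fed ApoE-/- aortas. In the vitamin E against the untreated group 7 of 9 were higher, where the Hoxc8 difference was 0.05. Liver markers were lower in all 11 genes tested in both ApoE-/- groups against B6, with sums of 21185 and 21768 in B6, 1249 and 1225 in untreated and 2357 and 2367 in vitamin E-fed ApoE-/- aortas. In the vitamin E against the untreated group 8 of the 11 liver genes were higher and 0 lower. Among tissues of the chest, markers of thymic epithelium summed to 2649 and 2637 in B6, 5246 and 5177 in untreated and 7142 and 7320 in vitamin E-fed ApoE-/- aortas. The B6 sum was carried by Ctsl, with 2444 and 2373. Tbata gave 2.46 and 4.12 in B6, 738 and 654 in untreated and 1133 and 914 in vitamin E-fed ApoE-/- aortas. Of 8 genes tested, 6 were higher and 0 lower in untreated ApoE-/- against B6. In vitamin E-fed ApoE-/- against B6, 8 were higher and 0 lower. Markers of heart muscle summed to 37747 and 37146 in B6, 67833 and 68115 in untreated and 38387 and 42065 in vitamin E-fed ApoE-/- aortas. Lung markers were lower in 4 of 8 genes tested and higher in 1 in untreated, and lower in 7 and higher in 1 in vitamin E-fed ApoE-/- against B6, with medians of -0.46 and -1.98, the direction of Hoxc8 and Hoxa9. Sftpc, a surfactant protein of alveolar cells, gave 3074 and 3132 in B6, 1402 and 1427 in untreated and 95.6 and 103 in vitamin E-fed ApoE-/- aortas, while the sum of the list was carried by Scgb1a1 and Scgb3a2, secretory proteins of the airways. Skeletal muscle markers summed to 46318 and 45710.0 in B6, 25551 and 25598, and 49861 and 57388. Of the tissues beside the abdominal aorta, kidney had 0 of 9 and adrenal cortex 0 of 8 genes above the limit, with highest single signals of 72.8 and 109. Their sums were 136 and 137 in B6, 235 and 236 in untreated and 240.4 and 244 in vitamin E-fed ApoE-/- aortas for kidney, and 162 and 165, 390.1 and 427, and 176 and 225 for adrenal cortex. Hsd3b1, a steroid-forming enzyme chosen after its values were seen, gave 12.8 and 5.03 in B6, 109 and 84.8 in untreated and 1.91 and 10.9 in vitamin E-fed ApoE-/- aortas. The part of these neighbouring tissues in the Hox differences was not tested.

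**Figure D4:**
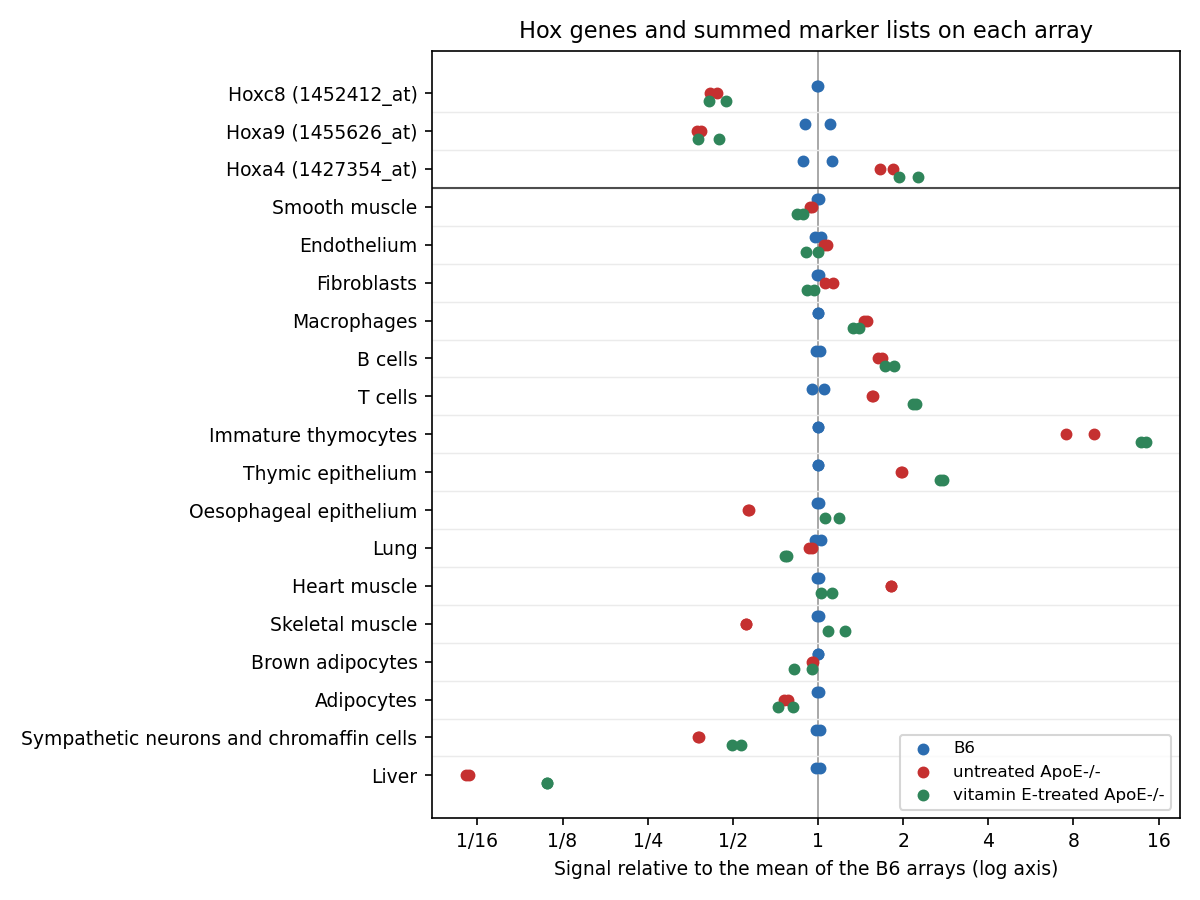
Signal of Hoxc8, Hoxa9 and Hoxa4 (above the line) and summed signals of tissue marker lists (below the line) on each array, relative to the mean of the B6 arrays, on a log axis. Sympathetic and liver markers lie to the left of B6 in both ApoE-/- groups, as do Hoxc8 and Hoxa9, whereas smooth muscle and fibroblast markers lie near 1.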

How the data were processed

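Aortic RNA was hybridised to Affymetrix MG430 2.0 arrays, 2 per group, each a pool of 3 aortas. The deposited signal intensity values were made by the authors with GCOS and scaled per array to a target of 200. They are linear, and detection calls were not used here, so no array-specific background limit was available. Signals under 20 were set to 20 and converted to log2. Probe sets with a group mean of at least 100 were tested (17909 of 45101, without 64 controls) with limma 3.58.1 in R 4.3.3, with 1 mean per group over all 6 arrays, an intensity trend and Benjamini-Hochberg adjustment. This left 3 residual and 4.46 prior degrees of freedom. An exact permutation test of 2 against 2 arrays cannot go below 0.333, so none was used for single genes. P values measure the spread between pools, and the number of arrays limits the precision. Neighbouring Hox transcripts can overlap, which the array annotation does not resolve.

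Symbols came from the platform annotation, which gave 1 symbol to 34945 probe sets, several to 932 and none to 9160, and 34741 of the 34945 matched a RefSeq symbol. Companion lists used 1 probe set per gene, the one with the highest mean signal. Array values are given for each Hox gene called in the main comparison set and for those beside the signal limit. Hoxa7, Hoxb5, Hoxc9 and the members not called were named after their values were seen. Up to 4 genes per companion list are named, the 2 with the highest signal and the 2 with the largest change in untreated ApoE-/- against B6. The members and lists were chosen with earlier results of these data known. Scripts were tested on simulated data. Alternatives were other scalings, floors, filters and moderation, fits of 2 groups, the replicate block, the brightest probe set of a gene alone, the removal of single arrays and the unpaired test of the methods.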

Additional observations from a re-analysis of the deposited data

How the results depend on the processing

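The counts of Hox calls against B6 changed with the processing, while the 2 counts between vitamin E-fed and untreated ApoE-/- aortas were 0 in all alternatives run. In untreated ApoE-/- against B6, the 2 higher calls became 1 with quantile normalization, with median centring, with an overall mean of at least 100 and with 1 probe set per gene, and 0 with no filter. With each array left out in turn they ranged from 0 (without B6 replicate 2) to 2, and were 1 without B6 replicate 1 or either untreated array. The 3 lower calls ranged from 2 to 3 with arrays left out and became 4 with no filter. In vitamin E-fed ApoE-/- against B6, the 3 higher calls became 1 with quantile normalization, with no filter and with an overall mean of at least 100. With arrays left out they ranged from 1 (without B6 replicate 2 or without vitamin E replicate 2) to 3. The 3 lower calls in that comparison ranged from 2 to 3 with arrays left out and became 4 with no filter. The methods' t-test with Benjamini-Hochberg adjustment called 1 higher (the cross-hybridising Hoxc6 probe set, not called with limma) and 1 lower (Hoxc8) in untreated ApoE-/- against B6 and 0 and 0 in vitamin E-fed ApoE-/- against B6, and with the thresholds of the methods (p of at most 0.01, at least 2-fold) 0 and 1, and 0 and 1. Over all probe sets that adjusted t-test called 1014 higher and 1142 lower in untreated ApoE-/- against B6 and 33 and 34 in vitamin E-fed ApoE-/- against B6. Quantile normalization and median centring test the same probe sets, and the cause of the lost Hoxc6 and Hoxd9 calls was not tested. With the replicate block the counts stayed at 2 higher and 3 lower, 0 and 0, and 3 and 3. The replicate numbers do not pair the samples, since deviations of same-numbered arrays correlated at 0.05, -0.10 and 0.05. The median of paralogs 1 to 4 in untreated ApoE-/- against B6 ran from -0.16 to 0.21 over 15 alternatives and that of paralogs 9 to 13 from -1.39 to 0. Dim probe sets, 34 of 48, limit what can be said of paralogs 1 and 10 to 13.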

Other observations

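Antisense transcripts of the Hox clusters were read by 5 further probe sets that are not Hox genes by name. Hoxb5os was the only antisense probe set that passed the limit of 100, with signals of 113 and 88.3 in B6, 76.8 and 54.7 in untreated and 54.2 and 52.4 in vitamin E-fed ApoE-/- aortas. It passed only through the B6 group, where it is high, so its values are given as a description and no call is read from them. Both B6 arrays lay above the ApoE-/- arrays, whereas the signal of Hoxb5 itself was alike in B6 and untreated ApoE-/- aortas. A probe set of Hoxd3os1 gave 65.8 and 78.6 in B6, 53.8 and 59.0 in untreated and 69.6 and 65.2 in vitamin E-fed ApoE-/- aortas, with overlap between B6 and the vitamin E group. The other Hoxd3os1 probe set stayed at or below 27.7, and both probe sets of Hoxa11os, which is antisense to the posterior gene Hoxa11, at or below 13.7.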
